A study of Homo sapiens with 12 samples.

Results

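The 9 genes HMOX1, NQO1, GCLM, GCLC, TXNRD1, SRXN1, OSGIN1, FTH1 and NFE2L2 were followed across 6 cell lines labelled as ovarian cancer (OC) and treated with quinacrine or vehicle. NFE2L2 encodes the transcription factor NRF2, and the other genes were chosen as antioxidant and iron genes that NRF2 is known to control. They are 9 of the 60669 gene IDs in the count table, they were found by gene symbol, and all of them were among the 18720 genes that passed the filter on low counts. In RefSeq (GRCh38.p14) the genes lie at chr22:35381096-35394207 (HMOX1), chr16:69709401-69726560 (NQO1), chr1:93885199-93909430 (GCLM), chr6:53497341-53545101 (GCLC), chr12:104215779-104350307 (TXNRD1), chr20:646615-653200 (SRXN1), chr16:83953240-83966332 (OSGIN1), chr11:61964285-61967634 (FTH1) and chr2:177230303-177264727 (NFE2L2).

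Under resting conditions KEAP1 holds NRF2 for ubiquitination by the CUL3 ligase and the protein is degraded. Electrophiles and oxidants modify KEAP1, NRF2 accumulates, pairs with a small MAF protein and binds the antioxidant response element, while BACH1 represses many of the same elements, that of HMOX1 most of all, until haem displaces it. The targets make glutathione, reduce thioredoxin and quinones, break down haem and store the iron that is released.

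The study measured polyA RNA by RNA-seq in chemosensitive lines and in chemoresistant lines derived from them, to ask how quinacrine (QC), an antimalarial drug, acts on resistant cells. The 3 isogenic families were HeyA8 with its resistant partner HeyA8-MDR, SK-OV-3 with SK-OV-3-TR, and OV2008 with C13. Every line was exposed over 6 h to QC at 8 µM or to buffer as the vehicle control, giving a single library per condition and 12 libraries altogether. The series describes the resistance as resistance to platinum drugs, whereas the methods give carboplatin for HeyA8-MDR, cisplatin for C13 and taxol for SK-OV-3-TR. The replicates of a group are therefore 3 different lines with different selecting drugs, whether a resistant line is a clone is not stated, and nothing states that repeat cultures were grown.

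Total counts lay between 17782556 and 30585059 per library. PAX8, a marker of Mullerian epithelium, reached 234 to 480 CPM (counts scaled to library size with TMM factors) in 8 libraries, but 7.56 to 24.8 CPM in those of OV2008 and C13, where the squamous markers TP63 and KRT5 stood at 108 to 329 and at 2550 to 11213 CPM. Of 6 squamous markers, 6 reached 1 CPM in OV2008 and C13 and 1 to 3 in the other lines. Of 6 Mullerian markers, PAX8 among them, 3 or 4 reached 1 CPM in OV2008 and C13 and 3 to 6 in the other lines. By this count the Mullerian list did not separate the lines. The leukocyte markers PTPRC and CD68 stayed below 1 CPM in every library. Whether OV2008 and C13 are of ovarian origin was not tested. The QC library of HeyA8 lay between its own vehicle library and HeyA8-MDR. Over 32 genes that were at least 8-fold higher in HeyA8-MDR and 75 that were at least 8-fold lower, it had moved by a median of 38.4% and 51.3% of the way, and ABCB1, the drug efflux pump, read 4.12 CPM in HeyA8 with vehicle, 26.5 with QC and 53.9 and 54.6 in HeyA8-MDR. The QC library of OV2008 had moved by 31.3% of the way over 41 genes that were lower in C13 and by 0.548% over 34 that were higher, and the other lines by between -4.40% and 17.7%. Whether the QC library of HeyA8 holds RNA of both lines was not tested. The QC effects over lines for GCLC, BACH1, GPX2 and the sensitive lines, and the comparisons of pairs of lines, are given with and without these libraries.

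Promoter sequence was read to show where an antioxidant response element can be seen directly in these genes. The core TGACNNNGC was searched on both strands from 250 bases before to 50 bases after each RefSeq start site (GRCh38.p14). The table held 9 windows for 7 of the 9 genes. Of these 7, GCLM and TXNRD1 held the core in a window, beside 16.1% of all 27305 genes with a window and 13.3% of all 35116 windows. The core was also found for 15 of 40 genes of a wider NRF2 and iron list, KEAP1 and GPX2 among them. For these 4 genes 1 copy each, chosen after the sequences were seen, is shown with 10 bases on each side, because their levels are described further on. TXNRD1 and KEAP1 held further copies that are not shown, also on the gene strand. The core is in capitals, and each run is read 5′ to 3′ on the strand that carries it, in all 4 the strand opposite to the gene.
GCLM, chr1:93909446-93909474, centred 30 bases before the start site: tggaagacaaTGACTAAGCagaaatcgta
TXNRD1, chr12:104286920-104286948, centred 98 bases before a start site within the gene: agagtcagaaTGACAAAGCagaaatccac
KEAP1, chr19:10502784-10502812, centred 27 bases before the start site: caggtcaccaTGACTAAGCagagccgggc
GPX2, chr14:64942849-64942877, centred 118 bases before the start site: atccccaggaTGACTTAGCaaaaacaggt
GCLM and KEAP1 held the same 9-base core. A match is a description of letters in a window and not evidence of binding, and the absence of a match from the windows of NQO1, GCLC, SRXN1, OSGIN1 and NFE2L2 says only that the letters are not there.

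Per length, the iron store and the reducing enzymes led. FTH1, the ferritin heavy chain that oxidises and stores iron, had the highest median level over the 12 libraries, 589 RPKM (reads scaled to exon length and library size). NQO1, which reduces quinones to hydroquinones, followed at 102 RPKM and TXNRD1, which reduces thioredoxin, at 85.2 RPKM. HMOX1, which breaks haem down to biliverdin, carbon monoxide and iron, stood at 9.99 RPKM, NFE2L2 at 8.44, the glutathione synthesis subunits GCLM and GCLC at 6.53 and 5.72, OSGIN1, an oxidative stress induced growth inhibitor, at 2.99 and SRXN1, which repairs over-oxidised peroxiredoxins, at 1.44 RPKM. Most neighbours in this order overlapped widely across libraries. FTH1, which began at 231 RPKM, and NQO1 shared only a narrow band, and so did TXNRD1 and HMOX1. NQO1 ranged from 16.7 to 239 RPKM and TXNRD1 from 38.1 to 134, and the ranges of HMOX1 (0.841 to 49.98) and NFE2L2 (2.42 to 20.2) held the medians of GCLM and GCLC. FTH1 has processed copies in the genome whose reads the authors' counting may split, so its level is uncertain. The order also depends on the length used, the union of all annotated exons, 14975 bases for NFE2L2 and 2306 for HMOX1. In CPM the medians were 572 for TXNRD1, 303 for NQO1, 126 for NFE2L2, 49.3 for GCLC, 35.4 for GCLM and 23.0 for HMOX1. HMOX1 varied most, 59.4-fold between the lowest and the highest library, against 15.5-fold for GCLC and 14.3-fold for NQO1.

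**Figure D1:**
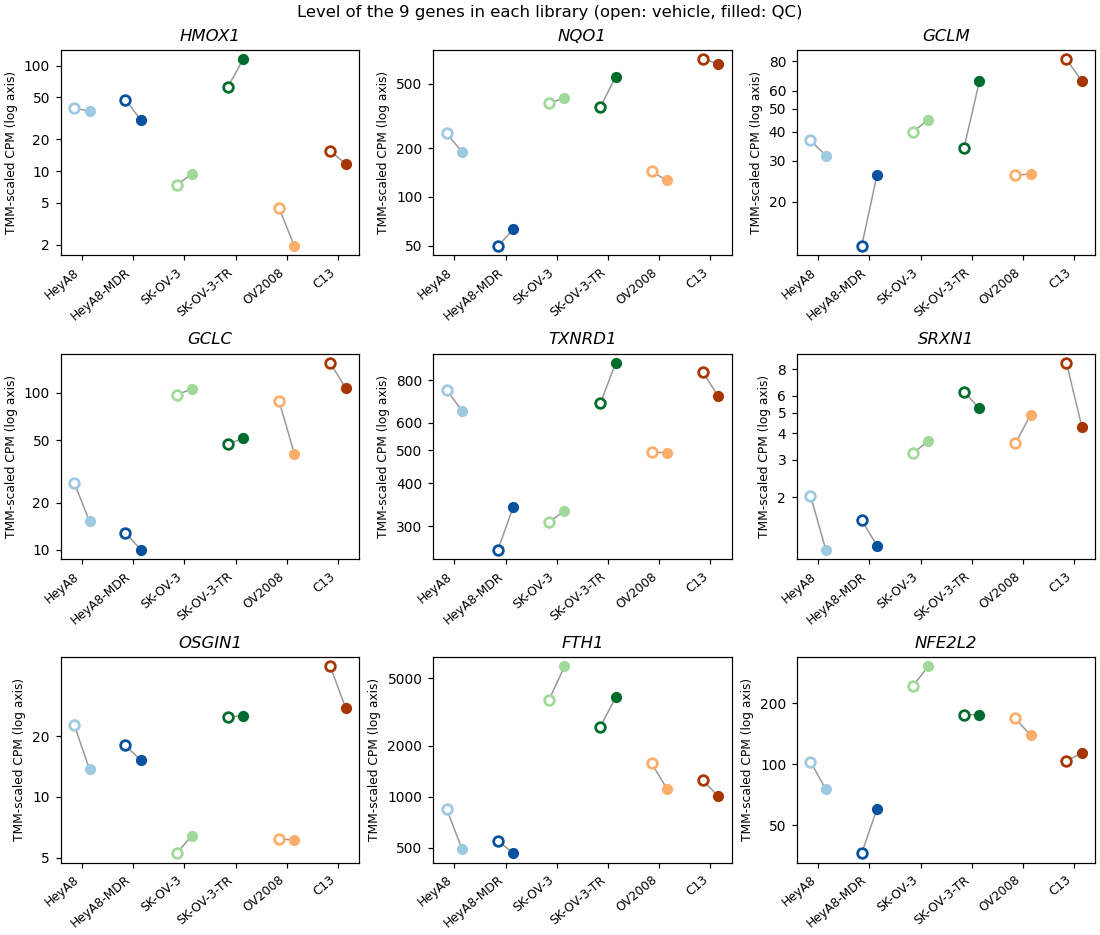
TMM-scaled CPM of each of the 9 genes (log axis, 1 panel per gene) in the 6 lines, with vehicle libraries as open points and QC libraries as filled points joined by a line, 1 library per point. NQO1 lies at 49.6 and 63.1 CPM in HeyA8-MDR and at 711 and 668 CPM in C13.

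To ask what QC did to the pathway, each line's QC library was set against its own vehicle library. None of the 9 genes passed the test of the QC effect over the 6 lines. GCLC, the catalytic subunit of glutamate-cysteine ligase, came closest, with lower levels in 4 of 6 lines. The values pointed in different directions in different families, mostly lower with QC in HeyA8, OV2008 and C13 and mostly higher in SK-OV-3 and SK-OV-3-TR. In bulk libraries, a change in the share of cells that express a gene and a change of level in each cell cannot be told apart.

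HMOX1 is a target of NRF2 that BACH1 represses. With vehicle it stood at 39.4 CPM in HeyA8, 47.7 in HeyA8-MDR, 7.36 in SK-OV-3, 62.8 in SK-OV-3-TR, 4.48 in OV2008 and 15.5 in C13. With QC it stood at 37.2, 30.6, 9.44, 115, 1.94 and 11.8 CPM in the same order. It was higher with QC in the SK-OV-3 family alone, by 1.28-fold and 1.84-fold, and lower in the other 4 lines, down to 0.444-fold in OV2008, where it rested on 44 counts. The fitted change was -0.14 ± 0.22 (log2, SE, 6 lines), with a 95% interval from -0.62 to 0.34.

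GCLC and its modifier partner GCLM form 1 enzyme, the rate-limiting step of glutathione synthesis, and they were read side by side. GCLC stood at 26.8, 12.9, 97.1, 47.2, 89.1 and 156 CPM with vehicle in HeyA8, HeyA8-MDR, SK-OV-3, SK-OV-3-TR, OV2008 and C13, and at 15.2, 10.01, 106, 51.4, 40.9 and 108 CPM with QC. It was lower in both lines of the HeyA8 and OV2008 families and 1.09-fold higher in each line of the SK-OV-3 family. The fit gave -0.43 ± 0.17 (log2, SE) with an unadjusted p of 0.0253 and an adjusted p of 0.26 in edgeR's quasi-likelihood test, which does not pass. It was -0.35 without HeyA8 and -0.28 without OV2008 (adjusted p = 0.471 and 0.587 in edgeR).

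GCLM read 36.7, 12.9, 39.8, 34.1, 26.0 and 81.7 CPM with vehicle and 31.6, 26.1, 45.0, 65.9, 26.4 and 65.8 CPM with QC in the same order of lines. It stood at 2.01-fold of vehicle in HeyA8-MDR and at 1.93-fold in SK-OV-3-TR and between 0.806-fold and 1.13-fold in the other 4 lines. The fitted change over the lines was 0.26 ± 0.19 (log2, SE). The difference between the 2 subunits went one way in each line: the QC change of GCLM exceeded that of GCLC by 0.05 (SK-OV-3), 0.22 (C13), 0.60 (HeyA8), 0.83 (SK-OV-3-TR), 1.14 (OV2008) and 1.37 (HeyA8-MDR) on the log2 scale, a mean of 0.70 ± 0.52 (SD, n = 6), and of 0.62 ± 0.60 (SD, n = 4) without HeyA8 and OV2008. This pair was picked from 36 pairs of genes after the values were seen, and 2 of the 36 went one way in all lines. The two-sided exact sign-flip test gave p = 0.03125, the smallest that 6 lines allow, and 0.45 after Benjamini-Hochberg adjustment over the 36 pairs. The test treats the 6 lines as independent, although they form 3 isogenic families. Per length, GCLM over GCLC was 1.59 with vehicle and 4.14 with QC in HeyA8-MDR, 0.463 and 1.02 in OV2008, and 0.651 and 0.673 in SK-OV-3. The size of this ratio depends on the exon lengths used, its change with QC does not.

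NQO1 read 247, 49.6, 381, 359.7, 144 and 711 CPM with vehicle and 189.7, 63.1, 409, 555, 126 and 668 CPM with QC in HeyA8, HeyA8-MDR, SK-OV-3, SK-OV-3-TR, OV2008 and C13. TXNRD1 read 749, 256, 307, 684, 493 and 844 CPM with vehicle and 651, 341, 333, 898, 491 and 719.5 CPM with QC. Both were higher with QC in HeyA8-MDR, SK-OV-3 and SK-OV-3-TR and lower in the other 3 lines. Their fitted changes were 0.07 ± 0.14 for NQO1 and 0.08 ± 0.13 for TXNRD1 (log2, SE). The least abundant genes, SRXN1 and OSGIN1, were each lower with QC in 4 of 6 lines, as were HMOX1, GCLC and FTH1. SRXN1 ranged from 1.13 to 8.59 CPM, on 20 to 258 counts, and OSGIN1 from 5.27 to 44.1 CPM, with fitted changes of -0.30 ± 0.25 and -0.24 ± 0.17.

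FTH1 read 845, 550.2, 3735, 2582, 1576 and 1247 CPM with vehicle and 489, 463, 5854, 3852, 1113 and 1009 CPM with QC in the same order. It was 1.57-fold and 1.49-fold higher with QC in the SK-OV-3 family and 0.579-fold to 0.841-fold in the other 4 lines, so that the fitted change was -0.11 ± 0.19 (log2, SE). FTL, the ferritin light chain, took the same direction in each line, with differences of 0.62 and 0.68 (log2) in SK-OV-3 and SK-OV-3-TR and of -0.56, -0.06, -0.45 and -0.30 in HeyA8, HeyA8-MDR, OV2008 and C13. The proportion of the chains, FTH1 over FTL in RPKM, differed more between lines than between treatments, from 0.0401 to 0.0676 in the HeyA8 family, 0.972 and 0.988 in SK-OV-3, 0.415 and 0.386 in SK-OV-3-TR, 0.834 and 0.803 in OV2008 and 0.279 and 0.278 in C13. TFRC, the transferrin receptor that brings iron in, differed by -0.61, -0.07, -0.46, 1.08, -0.09 and 0.32 in the order used above.

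NFE2L2 itself read 103, 36.3, 243, 175, 168 and 103 CPM with vehicle and 75.0, 60.3, 303, 175, 139 and 114 CPM with QC. Its largest steps were 1.66-fold up in HeyA8-MDR and 0.730-fold in HeyA8, and the fitted change was 0.07 ± 0.15 (log2, SE). NRF2 is controlled mainly through the stability of its protein, which was not measured.

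**Figure D2:**
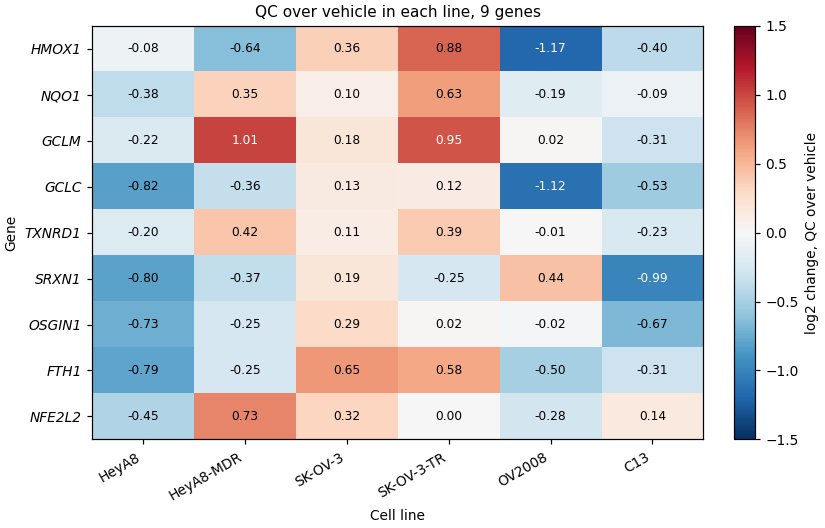
Log2 change of each of the 9 genes (rows) with QC over vehicle in each line (columns), 1 library per line and treatment, printed in the cells. All 9 values lie below 0 in HeyA8 and above 0 in SK-OV-3, and the lowest and highest values are -1.17 (HMOX1 in OV2008) and 1.01 (GCLM in HeyA8-MDR).

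Counted by line, 9 of the 9 genes were lower with QC in HeyA8 (median -0.45 on the log2 scale), 8 in C13 (-0.31), 7 in OV2008 (-0.19) and 5 in HeyA8-MDR (-0.25), while 9 were higher in SK-OV-3 (0.19) and 8 in SK-OV-3-TR (0.39). Over all 18720 genes tested, between 46.0% and 49.5% were higher with QC in a line. With 1 library per line and treatment, these counts within a line carry no test, and the genes of a line share its libraries. The value in HeyA8 rests on the QC library that lay between HeyA8 and HeyA8-MDR. The part of that displacement in the result was not tested.

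Over the 6 lines, 0 of 18720 genes (0%) had an adjusted p under 0.05 and 2840 (15.2%) an unadjusted p under 0.05 in edgeR, and GCLC was the only one of the 9 in the second count. DESeq2 called 522 genes and none of the 9. In the sensitive lines 1234 genes (6.59%) had an unadjusted p under 0.05, GCLC among the 9 genes, at -0.60 ± 0.24 (log2, SE, unadjusted p = 0.0297, adjusted p = 0.724 in edgeR). In the resistant lines it was 1128 genes (6.03%) and none of the 9, GCLM being nearest at 0.55 ± 0.26 (unadjusted p = 0.0546, adjusted p = 0.818 in edgeR). Adjusted calls numbered 0 in both, against 32 and 0 by DESeq2. All 9 fitted values lay below 0 in the sensitive lines and 5 of 9 above 0 in the resistant lines, with medians of -0.15 and 0.01, while the medians over all genes were 0.02 and -0.01. The direction in the sensitive lines rests on HeyA8, without which 3 of the 9 values lay below 0 and 6 above, with a median of 0.05. Without OV2008 8 lay below 0, and GCLC stood at -0.50 without HeyA8 and at -0.33 without OV2008 (unadjusted p = 0.121 and 0.248, adjusted p = 1 for both in edgeR). The difference of the QC effect, resistant minus sensitive, was tested directly. It passed for 0 genes by adjusted p (1 by DESeq2) and had an unadjusted p under 0.05 for 217 genes (1.16%), none of them among the 9. The nearest, NQO1, differed by 0.45 ± 0.28 (log2, SE, unadjusted p = 0.13, adjusted p = 0.9998 in edgeR), with a 95% interval from -0.15 to 1.05.

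Of the wider list of 52 NRF2 and iron genes, 0 passed the adjusted test over the 6 lines, 5 were higher and 8 lower at an unadjusted p under 0.05 (25.0% of the list, beside 15.2% of all genes), and the median change was 0.01. KEAP1, the sensor that marks NRF2 for degradation, was lower with QC in 6 of 6 lines, a pattern that 4.6% of all genes showed. IREB2 and SLC11A2 of the list were also lower in 6 of 6 lines. NCOA4 was higher in 6 of 6, as were 4.13% of all genes. KEAP1 read 80.9 CPM with vehicle and 65.9 with QC in HeyA8, 95.8 and 71.2 in HeyA8-MDR, 67.1 and 65.0 in SK-OV-3, 41.9 and 29.4 in SK-OV-3-TR, 133 and 91.1 in OV2008, and 137 and 87.7 in C13. The fitted change was -0.41 ± 0.11 (log2, SE), with an adjusted p of 0.169 in edgeR and 0.0306 in DESeq2, so that its call depends on the tool. BACH1, the repressor of HMOX1, was higher with QC in 4 of 6 lines, most in OV2008, at 30.1 and 65.5 CPM, and C13, at 28.7 and 57.2 CPM, with 0.43 ± 0.17 over the lines (adjusted p = 0.268 in edgeR), 0.49 without HeyA8 and 0.29 without OV2008 (adjusted p = 0.333 and 0.579 in edgeR). In those 2 lines HMOX1 was lower with QC, at 0.444-fold and 0.759-fold. It was also lower in HeyA8 and HeyA8-MDR, at 0.945-fold and 0.641-fold. Whether BACH1 had a part in the level of HMOX1 was not tested. MAFF, a small MAF protein, also had an unadjusted p under 0.05.

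GPX2, a glutathione peroxidase of epithelia, had the lowest p of the list. It read 18.0 and 4.63 CPM with vehicle and QC in OV2008 and 165 and 78.8 CPM in C13 and was below 0.32 CPM in the other 8 libraries, so that its fitted change of -1.36 ± 0.26 (adjusted p = 0.131 in edgeR and 0.00684 in DESeq2) rests on those 2 lines. It was -1.32 without HeyA8, -1.01 without OV2008 and -1.44 without C13 (adjusted p = 0.2, 0.371 and 0.293 in edgeR). GLRX, a glutaredoxin, was higher in 5 of 6 lines, at 0.49 ± 0.15 (adjusted p = 0.186 in edgeR), and SLC48A1, a haem transporter, lower in 5 of 6, at -0.45 ± 0.15 (adjusted p = 0.197 in edgeR). AKR1B10, an aldo-keto reductase, read 4.03 and 11.5 CPM with vehicle and QC in OV2008 and 57.5 and 129 CPM in C13 and lay below 1.6 CPM elsewhere, with 0.91 ± 0.29 over the lines and an adjusted p of 0.197 in edgeR. SLC7A11, the cystine importer, had opposite differences within 1 family, at 136 and 19.2 CPM with vehicle and QC in HeyA8 and 7.01 and 17.3 CPM in HeyA8-MDR. The value of 19.2 comes from the QC library that lay between HeyA8 and HeyA8-MDR, and the part of that displacement in it was not tested. SQSTM1, the autophagy receptor that binds KEAP1, had differences between -0.23 and 0.16 on the log2 scale in the 6 lines. By group, 3 of 9 regulators, 3 of 10 glutathione and thioredoxin genes, 0 of 6 NADPH genes, 2 of 13 detoxification genes and 5 of 14 haem and iron genes had an unadjusted p under 0.05. The share of all genes was 15.2% in the same edgeR test.

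**Figure D3:**
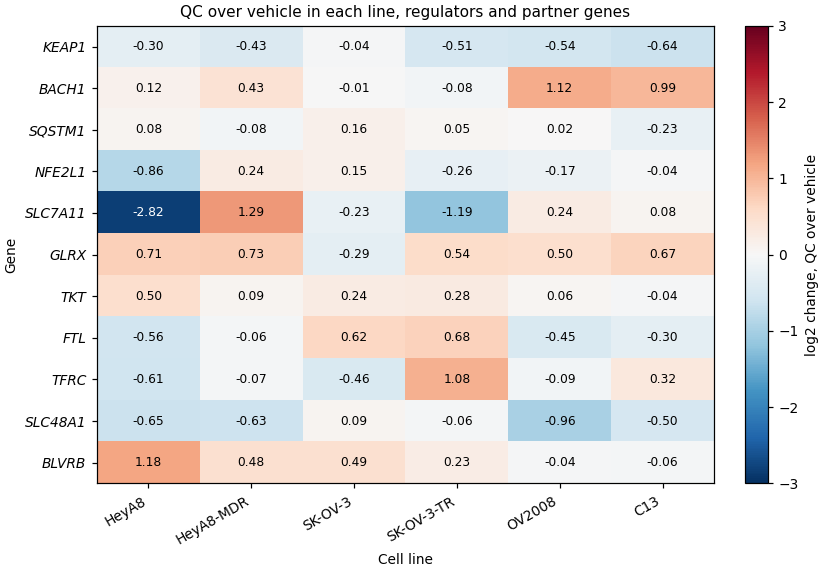
Log2 change with QC over vehicle in each line (columns) for 11 regulators and partner genes of the pathway (rows), 1 library per line and treatment, printed in the cells. KEAP1 lies below 0 in all 6 lines, between -0.64 and -0.04, and BACH1 reaches 1.12 in OV2008 and 0.99 in C13.

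The second question was how resistant lines differed from their parents before and under QC. In vehicle libraries HMOX1 was higher and NFE2L2 lower in all 3 resistant lines than in their parents, and neither passed the adjusted test. Of all genes, 13.1% were higher and 11.5% lower in all 3. HMOX1 averaged 17.1 ± 19.4 CPM in the sensitive and 42.0 ± 24.1 CPM in the resistant lines (SD, n = 3 each), and the resistant line stood at 1.21-fold of its parent in the HeyA8 family, at 3.42-fold in that of OV2008 and at 8.44-fold in that of SK-OV-3. The 2 groups overlapped, since C13 at 15.5 CPM lay below HeyA8 at 39.4. The fitted difference within families was 1.73 ± 0.62 (log2, SE) with an unadjusted p of 0.0343 and an adjusted p of 0.975 in edgeR. In the QC libraries it was 2.05 ± 0.85 (unadjusted p = 0.0549, adjusted p = 0.968 in edgeR), with HeyA8-MDR now at 0.823-fold of HeyA8. Every QC value of the HeyA8 pair uses the displaced QC library of HeyA8, and without that family the QC difference of HMOX1 was 3.13 (adjusted p = 0.999 in edgeR).

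NFE2L2 stood at 0.353-fold of the parent in the HeyA8 family, 0.719-fold in that of SK-OV-3 and 0.615-fold in that of OV2008 with vehicle, and at 0.804-fold, 0.578-fold and 0.822-fold with QC. FTH1 was also below the parent in all 6 comparisons, at 0.651-fold, 0.691-fold and 0.792-fold with vehicle and 0.946-fold, 0.658-fold and 0.906-fold with QC in the same order. Of all genes, 6.22% were lower in the resistant line in all 6. The fitted vehicle difference was -0.88 ± 0.31 for NFE2L2 (unadjusted p = 0.033, adjusted p = 0.975 in edgeR) and -0.49 ± 0.25 for FTH1 (unadjusted p = 0.098, adjusted p = 0.975 in edgeR). OSGIN1 was higher by 1.64 ± 0.73 with vehicle (unadjusted p = 0.068, adjusted p = 0.975 in edgeR) and by 1.45 ± 0.53 with QC (unadjusted p = 0.0347, adjusted p = 0.968 in edgeR), through SK-OV-3-TR and C13, since HeyA8-MDR stood at 0.794-fold and 1.11-fold of HeyA8.

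With vehicle, 0 of 16091 genes (0%) passed the adjusted test and 606 (3.77%) had an unadjusted p under 0.05, and 2 of the 9, HMOX1 and NFE2L2, were among them. With QC it was 0 of 15945 (0%) and 412 (2.58%), and OSGIN1 was the 1 of the 9. DESeq2 called 45 and 7 genes, none of them among the 9. Of the wider list, 51 genes were tested with vehicle, of which 0 passed, 4 were higher and 2 lower at an unadjusted p under 0.05, and the median was -0.04. ABCC2, a conjugate export pump, was highest at 3.82 ± 0.85 (adjusted p = 0.975 in edgeR and 0.000365 in DESeq2), going from 1.13 to 54.4 CPM between SK-OV-3 and SK-OV-3-TR, from 5.10 to 85.3 between OV2008 and C13 and from 3.46 to 11.6 between HeyA8 and HeyA8-MDR. BLVRB, a biliverdin reductase, was at 1.14 ± 0.30, and TKT, which feeds NADPH synthesis, at 0.84 ± 0.25. TFRC, at -0.88 ± 0.25, and NFE2L1, the NRF1 relative of NRF2, at -0.91 ± 0.27, lay lower. These 4 genes also had an adjusted p of 0.975 in edgeR.

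**Figure D4:**
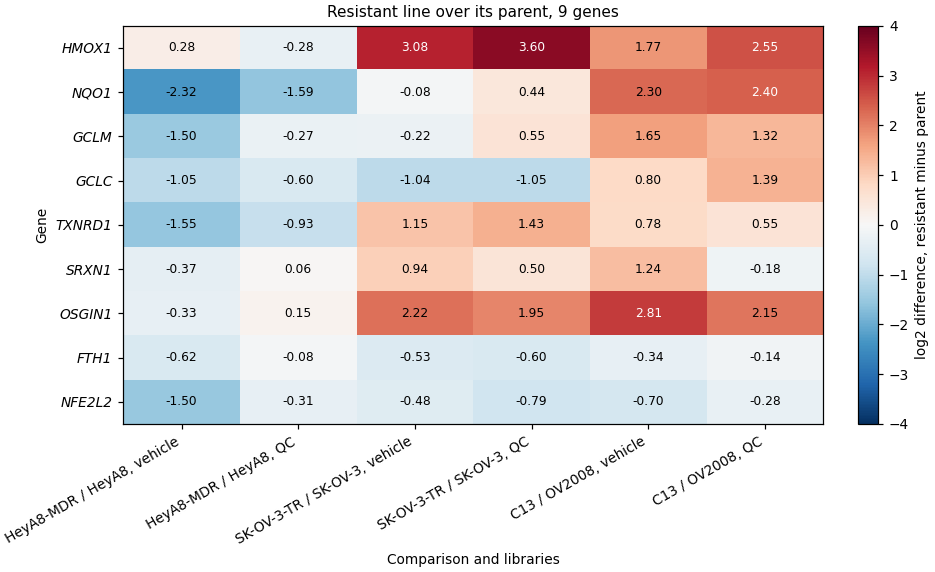
Log2 difference of each of the 9 genes (rows) between a resistant line and its parent (columns, by library treatment), 1 library per line and treatment, printed in the cells. NFE2L2 and FTH1 lie below 0 in all 6 columns, while NQO1 lies at -2.32 and -1.59 in HeyA8-MDR and at 2.30 and 2.40 in C13.

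Since the families differed, each pair of lines was also compared on its own. These comparisons were added after the values were seen, treat a line as 2 libraries, one per treatment, and describe those lines, not resistance. In C13, 5 of the 9 genes were higher than in OV2008. NQO1 was higher by 2.35 ± 0.25 (log2, SE, adjusted p = 0.000241), OSGIN1 by 2.51 ± 0.30 (adjusted p = 0.000435), HMOX1 by 2.11 ± 0.41 (adjusted p = 0.00835), GCLM by 1.51 ± 0.32 (adjusted p = 0.0137) and GCLC by 1.06 ± 0.29 (adjusted p = 0.0394), all in edgeR. Both libraries of C13 lay above both of OV2008 for each of these 5 genes. TXNRD1 was at 0.67 ± 0.22 (adjusted p = 0.075 in edgeR), SRXN1 at 0.53 ± 0.42, FTH1 at -0.25 ± 0.32 and NFE2L2 at -0.50 ± 0.26, and none of these passed in edgeR, while DESeq2 called TXNRD1 (adjusted p = 0.0381), as did edgeR with library size alone (adjusted p = 0.021).

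The calls covered 5 of the 9 genes, all higher, beside 9.46% of all genes called and 4.43% called higher. Without the QC library of OV2008 only NQO1 and OSGIN1 kept the call, and HMOX1 (1.59, adjusted p = 0.0702), GCLM (1.37, adjusted p = 0.0966) and GCLC (0.68, adjusted p = 0.297) lost it in edgeR. Leaving out the vehicle library of C13 also removed these 3 calls, at 1.94, 1.13 and 0.99, and leaving out its QC library removed that of GCLC, at 1.09. Of the wider list, 17 of 52 genes passed, 15 higher and 2 lower. The number was 9 without the vehicle library of C13, 11 without the QC library of OV2008, 12 without the QC library of C13 and 13 without the vehicle library of OV2008. Detoxification genes, enzymes and export pumps, made up 9 of the 17, with 8 higher and 1 lower. Examples were AKR1C2, from 2.74 to 44.01 CPM with vehicle, AKR1C1, from 3.31 to 29.1, and AKR1B10, from 4.03 to 57.5. AKR1C1 and AKR1C2 are near-identical copies whose reads may be split. ME1, which makes NADPH, stood at 38.5 and 120 CPM, GPX2 at 18.0 and 165 CPM, and NFE2L1 and ABCC1 were the lower ones.

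HeyA8-MDR differed from HeyA8 in the other direction. NQO1 was lower, at -1.96 ± 0.25 (log2, SE, adjusted p = 0.00185 in edgeR), and so was TXNRD1, at -1.24 ± 0.22 (adjusted p = 0.0126 in edgeR), with both libraries of HeyA8-MDR below both of HeyA8. These were 2 of the 9, both lower, beside 4.08% of all genes called and 3.63% called lower. NFE2L2 at -0.90 ± 0.26 (adjusted p = 0.0731 in edgeR), GCLM at -0.86 ± 0.32 (adjusted p = 0.141) and GCLC at -0.84 ± 0.30 (adjusted p = 0.123) did not pass, and HMOX1 (0.02 ± 0.37), OSGIN1 (-0.11 ± 0.28), SRXN1 (-0.18 ± 0.46) and FTH1 (-0.39 ± 0.32) lay nearer to 0. Without the displaced QC library of HeyA8, NQO1 and TXNRD1 kept their calls and NFE2L2 gained one (-1.21, adjusted p = 0.0264 in edgeR), as it did without the QC library of HeyA8-MDR (-1.32, adjusted p = 0.0446 in edgeR). DESeq2 also called NFE2L2 in this pair (-0.86, adjusted p = 0.0354). The calls rested on vehicle libraries. TXNRD1 lost its own without the vehicle library of HeyA8 (-1.07, adjusted p = 0.148), and NQO1 (-1.81, adjusted p = 0.0608) and TXNRD1 (-1.05, adjusted p = 0.179) without that of HeyA8-MDR. Of the wider list 4 genes passed, AKR1C1, AKR1C2 and AKR1C3 lower and BLVRB higher. The number was 0 without the vehicle library of HeyA8-MDR, 1 (AKR1C1) without that of HeyA8, 3 without the QC library of HeyA8-MDR and 8 without that of HeyA8. With no filter on low counts it was 16, and GCLM, GCLC and NFE2L2 were also called (adjusted p = 0.0254, 0.0209 and 0.00474 in edgeR), 5 of the 9 genes.

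In SK-OV-3-TR, 3 of the 9 genes were higher and 1 lower than in SK-OV-3. HMOX1 was higher by 3.42 ± 0.40 (log2, SE, adjusted p = 7.25e-05), OSGIN1 by 2.08 ± 0.30 (adjusted p = 0.000278) and TXNRD1 by 1.30 ± 0.22 (adjusted p = 0.00102), GCLC was lower, at -1.05 ± 0.29 (adjusted p = 0.0156), all in edgeR, and NQO1 and GCLM stood at 0.21 ± 0.24 and 0.20 ± 0.32. These 4 of 9 calls stand beside 31.5% of all genes called in this pair, 16.6% higher and 14.9% lower, the largest share of the 3 pairs. GCLC lost its call without the QC library of SK-OV-3 (-0.66, adjusted p = 0.207) or the vehicle library of SK-OV-3-TR (-0.74, adjusted p = 0.16). NFE2L2 was at -0.64 ± 0.26 (adjusted p = 0.0784), FTH1 at -0.58 ± 0.32, called with no filter on low counts (adjusted p = 0.0365 in edgeR), and SRXN1 at 0.72 ± 0.42. Of the wider list 24 of 52 passed, 9 higher and 15 lower, and 14 without the QC library of SK-OV-3-TR. ABCC2, AKR1B10 and MAFK were among the higher, and SLC7A11, MGST1, ALDH3A1, AKR1C1 and KEAP1 among the lower.

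Across the 12 libraries the 9 genes did not follow 1 pattern. Pearson's r of log2 CPM was 0.93 between NQO1 and GCLM, 0.91 between FTH1 and NFE2L2 and 0.82 between GCLC and SRXN1, but 0.04 between NQO1 and HMOX1 and -0.36 between NFE2L2 and HMOX1. HMOX1 was closest to OSGIN1 among the 9, with r = 0.67. Among all genes tested, the 3 most like HMOX1 were SYNPO (r = 0.96), PSTK (0.95) and AAMDC (0.94), those most like NQO1 were SMIM13 (0.94), GCLM (0.93) and LBR (0.93), and those most like NFE2L2 were IFT74 (0.97), CEP78 (0.97) and ADAM10 (0.96). These values describe 12 libraries that come from 6 lines, and carry no test.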

How the data were processed

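Poly(A) RNA of 6 lines, with vehicle or QC, was sequenced after TruSeq preparation, 1 library each. The deposited values are raw read counts per gene that the authors made with HTSeq. The submitters' processing notes name STAR 2.7.3a, HTSeq 0.6.1p1 and GRCh38.p13, whereas the study's methods name TopHat and hg19, and the conflict was not resolved. Annotation and strandedness of the counting are not given in the sources used here. Ensembl IDs without version were paired with symbols for 58663 of 60669 IDs, which held 99.9% of the counts. Coordinates and promoter windows are RefSeq's (GRCh38.p14), and RPKM used the union of GENCODE exons lifted to GRCh37 as length.

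Counts were tested in edgeR 4.0.16 (R 4.3.3): filterByExpr (minimum count 10, minimum total 15), TMM scaling, quasi-likelihood F-test, two-sided, Benjamini-Hochberg over all genes tested, threshold 0.05. The block was the cell line for QC effects and the isogenic family for resistant against parent. QC effects by group and their difference came from 1 fit of all 12 libraries. The pairing comes from the shared line, and the deviations of a line's libraries from the group means correlated by 0.893 to 0.929. Log2 values per line used a prior count of 2. Single values were tested by exact sign flips. A line pair was compared with a term per line and a common QC term over 12 libraries. Alternatives were DESeq2 1.42.0, other scalings and filters, no block and leaving out lines or libraries. The code was tested on simulated data.

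Beside the 9 genes, the text names genes of a 52-gene list written from general knowledge: KEAP1, BACH1, SQSTM1, SLC7A11, FTL and TFRC, and the 5 of lowest p in the QC effect over 6 lines and in resistant against parent with vehicle. Others, ABCB1 and the examples in the line pairs were named after their values were seen. The genes, lists and comparisons were chosen with earlier results of these data known. P-values of QC effects treat lines as independent, although the 6 lines form 3 isogenic families. P-values measure the spread between lines, except in the line pairs. There they measure how far the libraries depart from a QC change common to all lines, and hold no spread between repeat cultures. Counts cover counting error only.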

Additional observations from a re-analysis of the deposited data

How the results depend on the processing

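The adjusted calls over lines depended on the tool and the filter. DESeq2 called 522, 32, 1, 45 and 7 genes for the QC effect over 6 lines, in sensitive lines, its difference, and resistant against parent with vehicle and QC, and no filter on low counts gave 791, 195, 5, 146 and 23, with 35 in resistant lines, against 0 in the reported tests. None of the 9 genes was called by either. Leaving out 1 line gave 0 to 1 genes over 6 lines and 2 to 18 in sensitive lines. Without the replicate block, pairing no libraries, all 6 counts were 0. For the pairs, DESeq2 gave 1793 genes (HeyA8-MDR) and 2675 (C13), no filter 2030 (HeyA8-MDR), and leaving out 1 library 50 to 1879 (HeyA8-MDR), 3239 to 6653 (SK-OV-3-TR) and 477 to 1924 (C13).

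Signs turned for small changes that no test called, and the cause was not tested. Without the replicate block, HMOX1 and FTH1 read 0.12 and 0.28 for QC, NQO1, GCLM and GCLC 0.53, 0.32 and 0.00073 against the parent with vehicle, and GCLC 0.057 with QC. NQO1 and GCLM read 0.0048 and 0.0013 with library size alone and 0.011 and 0.0071 with 10 counts in every library. HMOX1 in HeyA8-MDR read -0.031 with library size alone and -0.029 with no filter. Leaving out 1 line gave ranges for QC of -0.36 to 0.024 (HMOX1), -0.26 to 0.032 (FTH1), -0.045 to 0.16 (NQO1), -0.00030 to 0.14 (TXNRD1) and -0.067 to 0.18 (NFE2L2). Leaving out 1 family gave, with vehicle, -1.16 to 1.11 (NQO1), -0.82 to 0.72 (GCLM) and -0.37 to 0.97 (TXNRD1). GCLC kept its sign there, at -1.01 to -0.10. With QC, leaving out 1 family gave -0.81 to 0.44 (GCLC), -0.44 to 0.18 (TFRC), -0.17 to 1.005 (TXNRD1), -0.052 to 0.32 (SRXN1) and -0.55 to 1.43 (NQO1). Leaving out 1 library gave, in HeyA8-MDR, -0.32 to 0.30 (HMOX1), -0.48 to 0.16 (SRXN1), -0.39 to 0.19 (OSGIN1) and -0.76 to 0.056 (FTH1), in SK-OV-3-TR -0.10 to 0.52 (NQO1) and -0.19 to 0.58 (GCLM), and in C13 -0.47 to 0.012 (FTH1). With 1 library per line and treatment, 3 lines per group and counts as low as 20 for SRXN1, small changes were not detectable.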
